A study of Mus musculus with 7 samples.

Results

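Rmrp, Rpph1, Rn7sk, Rn7s1, Rn7s2, Malat1 and Neat1 are 7 abundant noncoding RNAs that were followed by name among the 43346 genes counted in the growth plates of 7 mice. All 7 were measured in every mouse, and all 7 were among the 19204 genes that could be compared between alleles. The animals were male C57BL/6J × CAST/EiJ F1 hybrids aged 21 days, so that each carried 1 B6 and 1 CAST copy of every autosome. There was a single condition, with no treatment and no other genotype. The libraries were made from total RNA of the growth plate, labelled as growth plate chondrocytes, after depletion of cytoplasmic and mitochondrial ribosomal RNA. Reads were assigned by the authors to a gene and to its B6 or CAST allele. The design therefore allowed a comparison of the alleles within each mouse and a description of the differences between mice.

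These RNAs do not encode protein and carry out structural or catalytic work in the cell. Rmrp is the RNA of RNase MRP, an endonuclease that cleaves precursor ribosomal RNA, and mutations in the human gene cause cartilage-hair hypoplasia, a short-limbed skeletal dysplasia of the growth plate. Rpph1 is the catalytic RNA of RNase P, which trims the 5′ ends of precursor tRNAs and shares most of its proteins with RNase MRP. Rn7sk (7SK) holds the kinase P-TEFb inactive and thereby restrains transcription elongation, and Rn7s1 and Rn7s2 encode 7SL, the scaffold of the signal recognition particle that brings secretory proteins such as collagens to the endoplasmic reticulum. RNA polymerase III makes these short RNAs. Malat1 and Neat1 are long RNA polymerase II transcripts kept in the nucleus, where Malat1 collects in nuclear speckles and Neat1 builds paraspeckles.

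The sequences decide which reads can be told apart, so those of Rmrp, Rpph1 and Rn7sk are given from GENCODE M21 transcripts (GRCm38/mm10), 5′ to 3′ in the sense of the gene. Rmrp (ENSMUSG00000088088, ribozyme) lies at chr4:43492788-43493058 on the minus strand. Rpph1 (ENSMUSG00000092837, bases 1 to 300 of 319 shown) lies at chr14:50807449-50807767 on the minus strand. Rn7sk (ENSMUSG00000065037, bases 1 to 300 of 331 shown) lies at chr9:78175303-78175633 on the minus strand. In these 3 sequences the capitals mark bases inside a stretch of 75 bases, the read length, that another counted gene also contains on either strand.
Rmrp: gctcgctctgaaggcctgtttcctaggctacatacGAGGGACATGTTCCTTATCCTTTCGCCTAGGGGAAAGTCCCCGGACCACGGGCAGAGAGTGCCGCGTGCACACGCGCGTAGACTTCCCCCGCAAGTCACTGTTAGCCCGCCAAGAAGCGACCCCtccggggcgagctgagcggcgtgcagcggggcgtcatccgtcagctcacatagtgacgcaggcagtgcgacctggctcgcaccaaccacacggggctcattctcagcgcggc
Rpph1: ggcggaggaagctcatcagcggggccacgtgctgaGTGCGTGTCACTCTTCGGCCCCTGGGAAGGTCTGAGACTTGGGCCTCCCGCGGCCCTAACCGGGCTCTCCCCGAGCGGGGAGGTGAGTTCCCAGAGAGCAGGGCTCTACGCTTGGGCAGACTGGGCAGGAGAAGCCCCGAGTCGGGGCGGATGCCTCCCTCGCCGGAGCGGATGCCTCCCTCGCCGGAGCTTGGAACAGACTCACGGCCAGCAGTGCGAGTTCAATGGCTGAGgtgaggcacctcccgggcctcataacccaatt
Rn7sk: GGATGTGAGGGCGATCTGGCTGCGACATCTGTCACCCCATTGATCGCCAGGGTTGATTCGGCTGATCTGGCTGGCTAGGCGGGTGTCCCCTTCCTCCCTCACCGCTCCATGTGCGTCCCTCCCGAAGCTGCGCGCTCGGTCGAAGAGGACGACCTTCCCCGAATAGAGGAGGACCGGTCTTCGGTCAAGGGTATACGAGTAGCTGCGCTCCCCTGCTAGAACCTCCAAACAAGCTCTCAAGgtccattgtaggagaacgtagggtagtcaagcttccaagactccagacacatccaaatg

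The marked stretch of Rmrp spans bases 36 to 159. It is shared with Ccdc107, a protein-coding gene that overlaps Rmrp on the opposite strand, and holds 50 of the 197 possible 75-base reads of Rmrp. Another annotation record, not counted here, also carries the symbol Rmrp. In Rpph1 the stretch runs from base 36 to base 268 and is shared with Ccnb1ip1, which overlaps it on the same strand, so that 159 of 245 possible reads (64.9%) fit both. In Rn7sk the stretch covers bases 1 to 241 and 167 of 257 possible reads (65.0%) recur in annotated copies elsewhere in the genome, Gm24447, Gm26315 and Gm26035 sharing the most. The counts of these genes were small. Ccdc107 held 132 to 352 estimated counts per mouse, Ccnb1ip1 held 1 to 7, and Gm26315, the highest of the 3 copies, held 42.9 to 100, where Rmrp held 52815 to 111649 and Rpph1 68013 to 136362. Whether the authors' counting used the strand of the read is not given in the sources used here, so reads of Rmrp and Ccdc107 in the shared stretch may have been divided by the estimation alone.

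Rn7s1 (ENSMUSG00000099021) lies at chr12:69159295-69159594 on the plus strand and Rn7s2 (ENSMUSG00000099250) at chr12:69361182-69361481 on the minus strand. Their transcripts are the same at all 300 positions, while Rn7s6, a related 7SL gene on chromosome 6, has 291 bases and aligned to them at 85.0% identity. No read could tell Rn7s1 from Rn7s2, and both were given identical counts in every mouse. Rn7s6, which shares 99 of their 226 possible reads, held only 97.9 to 301 counts per mouse. Malat1 (ENSMUSG00000092341, chr19:5795690-5802672, minus strand, 6983 exonic bases) and Neat1 (ENSMUSG00000092274, chr19:5824708-5845478, minus strand, 20771 exonic bases) are neighbours and share few reads with other genes, 5.66% of the possible reads of Malat1 and 0.783% of those of Neat1. Rmrp and Rpph1, whose RNAs have related roles, aligned at 51.8% identity, a value inside the range of the other pairs of short members apart from the 7SL genes (50.8 to 53.1%).

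The 7 libraries held 14098019 to 37849667 counts, and the 7 noncoding RNAs together took 16.6 to 25.2% of them. All 10 chondrocyte markers examined were detected, with a summed level of 60794 to 97496 CPM (counts scaled to a total of 1000000 in each mouse). Markers of osteoblasts, blood cells, osteoclasts, muscle and endothelium were detected as well, so the tissue was not chondrocytes alone. Fewer cells of a type and less RNA per cell cannot be told apart in such bulk samples. The 7 mice are separate animals of 1 group, and the exact permutation tests below measure the spread between them. The edgeR tests without the mouse take the allele columns as independent, so differences in level between mice enter their spread. Only the fits with the mouse as a replicate block pair the alleles of a mouse.

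Rn7s1 and Rn7s2 were the most abundant genes of every library. Each held 64379 CPM in the lowest mouse, 80555 in the median mouse and 96601 in the highest. Their sum, which is the measured quantity since the genes cannot be separated, was 16.6% ± 2.33 of all counts (SD, n = 7). Rn7sk ranked 3rd to 6th, with 26003, 34592 and 44372 CPM in the lowest, median and highest mouse. For both 7SL genes and for Rn7sk the lowest value was in mouse 1 and the highest in mouse 8.

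The RNAs of the RNA-cleaving particles were well below Rn7sk. In mice 1, 2, 3, 4, 5, 7 and 8, Rmrp held 2406, 2920, 3351, 4392, 2950, 3746 and 4582 CPM. Its mean was 3478 ± 804 (SD, n = 7), and it ranked 16th to 27th among all genes. Rpph1 held 2829, 3603 and 5522 CPM in the lowest, median and highest mouse, with a mean of 4126 ± 1013 (SD, n = 7). Mouse 1 was lowest and mouse 8 highest for Rmrp and Rpph1 too.

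Among the long RNAs, Malat1 held 3018 CPM in mouse 4, 3706 in the median mouse and 4612 in mouse 3. Its mean was 3775 ± 561 (SD, n = 7), which is close to that of Rmrp before length is considered. Neat1 varied more. In the same order of mice it held 2106, 1520, 1522, 887, 803, 685 and 712 CPM, so that mice 1, 2 and 3 lay above the other 4 with a gap between them.

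**Figure D1:**
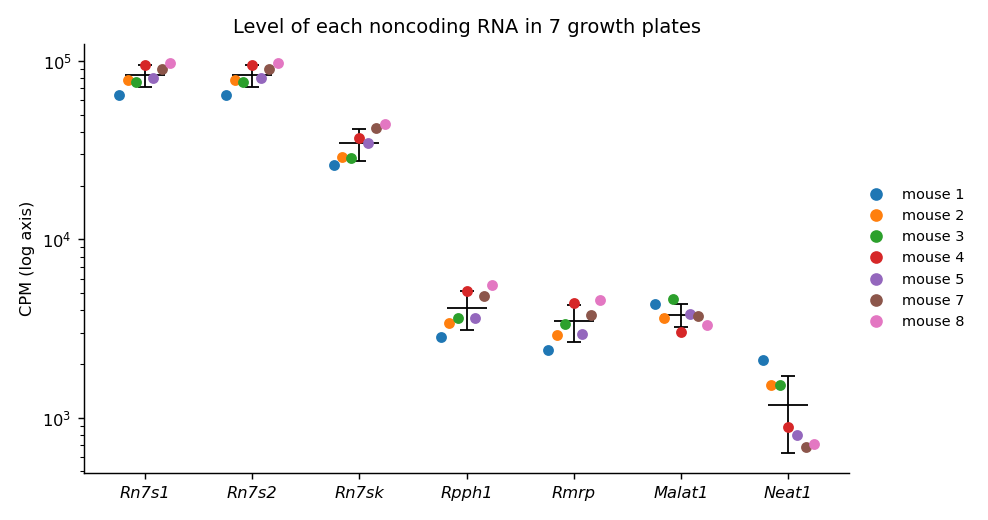
CPM (log axis) of each noncoding RNA in each of 7 mice. Points are mice, horizontal bars the mean and error bars the SD. Rn7s1 and Rn7s2 have the same values, 64379 to 96601, and Neat1 spans the widest relative range, from 685 to 2106.

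Levels of different genes were compared per kilobase of annotated exon, in CPM per kilobase. On this scale Rn7s1 and Rn7s2 each held 276264 ± 38750, Rn7sk 104172 ± 21266, Rpph1 12933 ± 3174, Rmrp 12834 ± 2968, Malat1 541 ± 80.3 and Neat1 56.6 ± 26.2 (SD, n = 7). The sum of the 7SL genes, which is their measured quantity, was 552527 on average. The fold of Rn7s2 over Rn7sk below is for 1 of the 7SL genes and so is not the ratio of 7SL to 7SK. Apart from the identical 7SL genes, each step in this order except 1 was present in all 7 mice. Rn7s2 exceeded Rn7sk 2.68-fold, Rn7sk exceeded Rpph1 8.12-fold, Rmrp exceeded Malat1 23.4-fold and Malat1 exceeded Neat1 10.3-fold (exact permutation of signs over 7 mice, two-sided, p = 0.0156 for each, the smallest p that 7 mice allow, and 0.0234 after Benjamini-Hochberg adjustment over 6 neighbouring pairs). Rpph1 and Rmrp, the RNAs of RNase P and RNase MRP, were not separated. Their ratio was 1.00 with a range over mice of 0.913 to 1.09, Rpph1 was the higher in 3 of 7 mice, and the exact p was 0.812 (0.975 adjusted). The library kit was designed for RNAs of more than 200 nucleotides and the short members are not far above that size, and Neat1 also has shorter annotated transcripts than the exons counted in its length. The part of size selection and transcript choice in these ratios was not tested.

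The short RNAs rose and fell together from mouse to mouse. On log2 CPM, Rmrp and Rpph1 had r = 0.98 and rho = 0.96 over 7 mice (exact permutation p = 0.000397 for r and 0.00278 for rho, or 0.00417 and 0.00972 after adjustment over 21 pairs), and r was 0.93 without the 2 mice farthest from the median of Rmrp. Rpph1 and Rn7s1 had r = 0.97 and rho = 0.96 (exact permutation, adjusted p = 0.00521 and 0.00972, r = 0.95 without 2 mice). Rmrp and Rn7s1 had r = 0.95 and rho = 0.89 (exact permutation, adjusted p = 0.00536 and 0.0258, r = 0.87 without 2 mice). These RNAs share the library and its total, of which the 7SL genes and Rn7sk are a large part. With Rn7s1, Rn7s2 and Rn7sk left out of the totals, r for these 3 pairs was 0.96 to 0.98. That scaling still divides all the RNAs of a mouse by 1 common total. The part of shared scaling in these correlations was not tested. Rmrp and Rn7sk had r = 0.83 and rho = 0.86 (exact permutation, adjusted p = 0.0367 and 0.0455), but r was 0.59 without the 2 extreme mice, so that relation rests on them.

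Malat1 did not follow the short RNAs. Its r with Rmrp was −0.71 and its rho −0.61 (exact permutation, adjusted p = 0.0781 and 0.175, r = −0.55 without 2 mice). With Rn7s1 the r was −0.83 and rho −0.82 (exact permutation, adjusted p = 0.0367 and 0.0478, r = −0.80 without 2 mice), but r was −0.71 with an adjusted p of 0.0841 (exact permutation) when the totals left out the 7SL genes and Rn7sk. For Neat1 no correlation with other genes is given, because its levels in mice 1, 2 and 3 stood apart from those in the other 4 and both sets hold fewer than 6 mice.

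**Figure D2:**
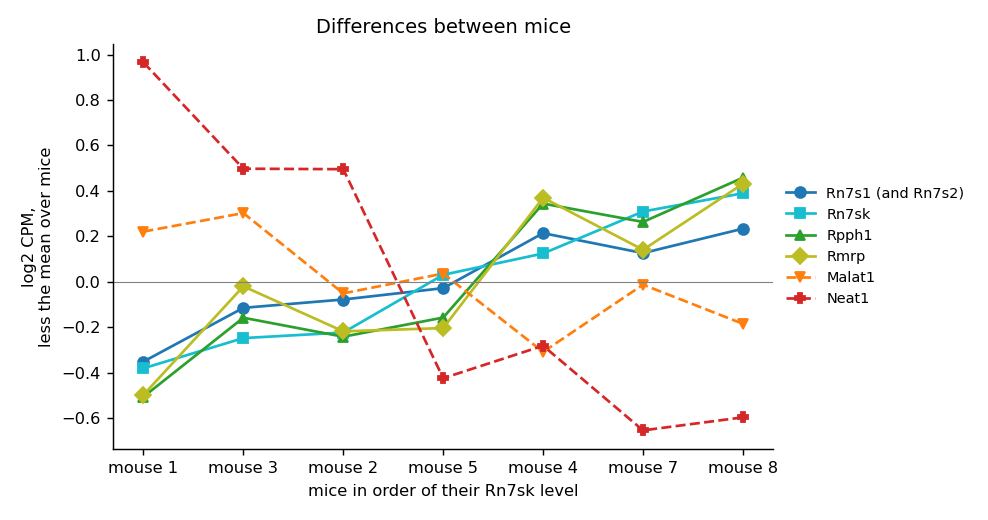
Log2 CPM of each RNA in each mouse, less that RNA's mean over 7 mice, with the mice ordered by their Rn7sk level. The 4 short RNAs (solid lines) were lowest in mouse 1 and highest in mouse 8, while Neat1 (dashed) was highest in mouse 1 and lowest in mouse 7.

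Set against all genes, the spread of the members ranged from ordinary to extreme. The SD over mice of log2 CPM was 0.64 for Neat1, larger than in 98.8% of the 15111 genes that reached 10 counts in each mouse. For Rpph1 it was 0.36 and for Rmrp 0.34, larger than in 83.2% and 80.1% of genes, and for Rn7sk 0.29 (72.0%). Malat1 and the 7SL genes each had an SD of 0.21, beside 0.22 for the median gene.

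Other tissue markers also differed between mice. The summed level of 4 osteoblast markers (Col1a1, Bglap, Bglap2 and Ibsp, all detected) was, in the order of mice used for Neat1 above, 63882, 64982, 53712, 46089, 40169, 35682 and 37345 CPM. It was highest in mouse 2 and lowest in mouse 7. The sum of 5 erythroid markers, all detected, was 7869 in mouse 3, the lowest, and 19283 in mouse 5, the highest. The sum of 3 endothelial markers, all detected, was 230 CPM in mouse 1, the highest, and 155 in mouse 8, the lowest. Chondrocyte markers were highest in mouse 4 and lowest in mouse 8, and muscle markers highest in mouse 1 and lowest in mouse 4. For osteoclast markers these were mice 2 and 4, for neutrophil markers mice 5 and 2, and for B-lineage markers mice 7 and 3. The part of tissue composition in the levels of Neat1 and the short RNAs was not tested.

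The genes whose level across mice was most like that of each member are given as a description over 7 mice, which share depth and composition. For Rmrp they were Yipf3 (Pearson's r = 0.98), Snorc, a chondrocyte proteoglycan (0.98), and the histone gene Hist2h2aa1 (0.97). Those of Rpph1 were Zbtb11os1 (0.99), Hist2h2aa1 (0.98) and the ribosomal protein gene Rpl36 (0.98). Rn7sk was closest to 3 histone genes, Hist1h3e, Hist1h4h and Hist1h4n (0.99 each), and the 7SL genes to Il17b, Naxe and Hist2h2aa1 (0.99, 0.99 and 0.98).

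Replication-dependent histone genes thus stood among the closest genes of every short RNA. For Malat1 the closest genes were the mitochondrial gene mt-Nd1, Gm37373 and Exoc6b (0.99 each). Many genes came close, since 644 of 15111 had r above 0.9 with Malat1 and 66 with Rmrp. When the totals left out the 7SL genes and Rn7sk, 10 of the 21 placements over all 7 members were kept, and histone genes then stood among the closest 3 for Rn7sk but not for Rmrp, Rpph1 or the 7SL genes.

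The alleles were compared next, which asks whether the B6 or the CAST copy of a gene gave more RNA in the same nuclei. Males have their X chromosome from the mother, and the X-linked gene Nono held 99.5 to 99.8% of its counts on B6. The B6 copy was thus the maternal one in all 7 mice. Strain and parent of origin cannot be told apart in the allele differences below. Of the 7 noncoding RNAs, Rpph1 and Neat1 were called at the FDR of 0.20 used in the study, Rpph1 higher on CAST and Neat1 higher on B6 (edgeR likelihood-ratio test). The 2 of 7 called stand beside 35.9% of all 19204 genes tested, and the 1 called in each direction beside 16.8% called higher on CAST and 19.2% higher on B6. Malat1 had a small excess of B6 counts in every mouse, Rmrp was nearly balanced, and Rn7sk, Rn7s1 and Rn7s2 had equal counts on both alleles.

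Neat1 had the largest allele difference of the 7 RNAs. In mice 1, 2, 3, 4, 5, 7 and 8, the B6 allele held 67.3, 69.0, 67.9, 66.3, 65.9, 66.9 and 65.8% of its counts, a mean of 67.0% ± 1.17 (SD, n = 7). The B6 share was thus far from 50% in all 7 mice and varied little, although the level of Neat1 varied 3.08-fold. Mean estimated counts were 21855 ± 13162 on B6 and 10602 ± 6146 on CAST (SD, n = 7). The mean log2 ratio over mice corresponds to a 2.03-fold excess of B6. In the fit across all genes the log2 fold change of CAST over B6 was −1.02 (SE 0.26, FDR = 0.000948), and the two-sided exact permutation of signs over mice gave p = 0.0156. Among the 179 autosomal genes with a mean of at least 10000 counts, 10 (5.59%) had a larger allele difference. They include the imprinted gene H19, and also the U3 genes Rnu3a and Rnu3b2, of a multicopy family whose reads may be divided among copies.

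Rpph1 leaned the other way. In the same order of mice, the B6 allele held 39.5, 40.6, 40.5, 42.6, 40.5, 44.1 and 40.7% of its counts. All 7 mice were below 50%, with a mean of 41.2% ± 1.57 (SD, n = 7). Mean counts were 42810 ± 9309 on B6 and 61404 ± 14647 on CAST (SD, n = 7), a 1.43-fold excess of CAST. The log2 fold change was 0.51 (SE 0.20, FDR = 0.0382, edgeR), with p = 0.0156 in the exact sign-flip permutation test. Among the 179 abundant autosomal genes, 21 (11.7%) had a larger allele difference. The few counts given to Ccnb1ip1, with which Rpph1 shares most of its sequence, also lay mainly on CAST, with 3.51 on CAST and 0.49 on B6 on average.

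Malat1 showed a small difference of constant direction. Its B6 share was 50.9% in the lowest mouse, 51.6% in the median mouse and 52.4% in the highest, above 50% in all 7 mice, with mean counts of 52069 ± 18822 on B6 and 48894 ± 17799 on CAST (SD, n = 7). An excess of B6 in all 7 mice was found for 14.4% of the tested genes. The mean log2 ratio over mice, a 1.07-fold excess of B6, gave p = 0.0156 in the exact sign-flip permutation test. The edgeR test without the mouse did not call Malat1 (log2 fold change −0.08, SE 0.10, FDR = 0.695). The alleles are paired, since each library gave both of them. A fit that kept the mouse as a replicate block called Malat1 (−0.08, FDR = 0.00173, edgeR quasi-likelihood), as did the same fit with 1 library size for both alleles (−0.09, FDR = 0.000632).

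Rmrp was the most evenly expressed of the RNAs whose alleles could be told apart. Its B6 share, mouse by mouse in that order, was 50.5, 50.2, 50.2, 49.9, 50.6, 50.3 and 49.5%, lying on both sides of 50%. The mean was 50.2% ± 0.385 (SD, n = 7), with 44280 ± 10102 counts on B6 and 44048 ± 10192 on CAST. The log2 fold change was 0.01 (SE 0.19, FDR = 0.991, edgeR), and 171 of the 179 abundant autosomal genes had a larger fitted change. That number includes Rn7sk, Rn7s1 and Rn7s2, whose alleles had equal counts and whose fitted 0.02 comes from scaling. It is therefore not a rank of how even Rmrp is. The exact sign-flip permutation test gave p = 0.344. These shares rest on 52815 or more counts per mouse, yet an unknown part of those counts may be reads that fit both alleles and were divided by the estimation.

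The 3 RNAs with equal alleles carry no allele information here. For Rn7sk, Rn7s1 and Rn7s2 the B6 and CAST counts were the same in all 7 mice, as they were for 4.36% of tested genes, as the estimation would return if no read separated the alleles. Their fitted log2 fold change of 0.02 comes from scaling the B6 and CAST columns separately, and it was 0.00 with 1 library size per mouse. Under the replicate block these 3 genes were also called (FDR = 2.84e-05 for Rn7sk and 1.78e-05 for Rn7s1 and Rn7s2, edgeR quasi-likelihood test), which brought the number of called members to 6, beside 42.7% of all genes. With the block and 1 library size per mouse their log2 fold change was 0.00, and 3 members were called, beside 42.2% of all genes. Of these, Rpph1 was higher on CAST, beside 18.7% of genes, and Malat1 and Neat1 higher on B6, beside 23.5%.

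**Figure D3:**
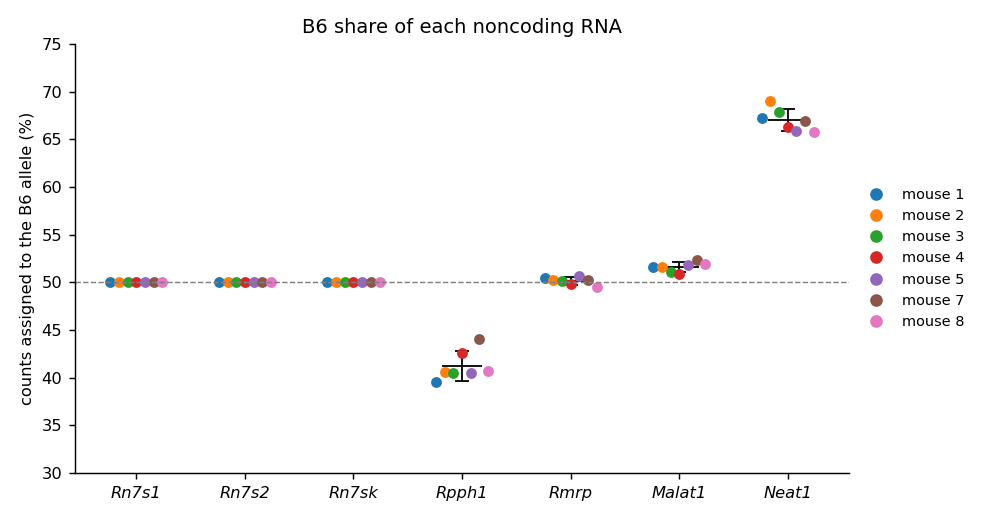
Percentage of each RNA's counts assigned to the B6 allele in each mouse. Points are mice, horizontal bars the mean, error bars the SD and the dashed line 50%, and the axis runs from 30 to 75%. Neat1 lies at 65.8 to 69.0% and Rpph1 at 39.5 to 44.1%, with Rmrp and Malat1 close to 50% and the other 3 exactly there.

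Beside Neat1 and Rpph1, the called genes Frmd8 and Parp2 leaned to the opposite allele, where 16.8% of all genes were called higher on CAST and 19.2% on B6. Ccnb1ip1, which overlaps Rpph1, leaned to the same allele as Rpph1, but it held only 4 counts per mouse on average. It shares most of the possible reads of Rpph1, so this is not a separate result. Malat1 leaned to B6 in all 7 mice, as Neat1 did, and was called under the replicate block (FDR = 0.00173, edgeR quasi-likelihood). Neat1 lies between Malat1, with a B6 share of 51.6% ± 0.502, and Frmd8, a protein-coding gene 4224 bases away whose B6 share was 45.9% ± 2.51 and which was called higher on CAST (log2 fold change 0.25, SE 0.10, FDR = 0.0476, CAST higher in 7 of 7 mice). The B6 shares of Neat1, Malat1 and Frmd8 therefore did not overlap between genes in these mice, since the highest for Frmd8 was 49.1% and the lowest for Malat1 50.9%.

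Parp2, a DNA repair gene whose nearest end is 74 bases from Rpph1, was higher on B6 in 7 of 7 mice (log2 fold change −0.32, SE 0.14, FDR = 0.0825), opposite to Rpph1. On the other side Ttc5 was not called (0.17, FDR = 0.449). Beside Rmrp, Arhgef39 was higher on B6 in all 7 mice (−0.40, SE 0.15, FDR = 0.0315), while Ccdc107, which overlaps Rmrp, had 112 ± 30.2 counts on B6 and 132 ± 42.2 on CAST and was not called (0.25, FDR = 0.208), but passed the threshold under the replicate block (0.25, FDR = 0.187). Beside Rn7s1, Rps29, a ribosomal protein gene 109 bases away, was not called (−0.08, FDR = 0.749) although B6 was the higher in 7 of 7 mice, and it was called under the replicate block (−0.09, FDR = 0.0466, quasi-likelihood test).

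The proteins that form particles with these RNAs were examined as lists, whose counts are to be read against the 35.9% of all tested genes called (42.7% under the replicate block). Of 12 proteins of RNase MRP and RNase P, 11 were tested and 1 was called, Rpp40, with a B6 excess in 7 of 7 mice (log2 fold change −0.42, SE 0.22, FDR = 0.156). Its mean count was 51.3, where the listed members ranged up to 394 counts against 88329 for Rmrp itself. The median absolute log2 fold change of the list was 0.14, beside 0.22 over all tested genes. Under the replicate block 2 were called, Pop4 (−0.24, FDR = 0.108) in addition. Of 6 genes of human skeletal dysplasias of RNA processing, which include Rmrp, its processing partner Nepro and Pop1, none was called at an FDR of 0.20, by the edgeR likelihood-ratio test or by the blocked quasi-likelihood fit.

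Of the 7 proteins of the 7SK particle and P-TEFb, 3 were called, a share near the 35.9% of all genes, and none of them had the same direction in all 7 mice. Larp7, which binds and stabilizes 7SK, was higher on CAST in 6 of 7 mice (0.36, SE 0.16, FDR = 0.0942). Hexim1, the inhibitor that 7SK brings to P-TEFb, was higher on B6 in 6 of 7 (−0.26, SE 0.10, FDR = 0.0553), as was the cyclin Ccnt2 (−0.19, SE 0.10, FDR = 0.165). Under the replicate block 5 were called, the additional genes being Mepce (−0.10, FDR = 0.169) and Ccnt1 (0.13, FDR = 0.178).

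The signal recognition particle and its receptor had 4 of 9 tested genes called, not far from the 35.9% of all genes. Each of the 4 had the same direction in 7 of 7 mice, as did 25.2% of all tested genes. On B6 these were Srp9, a protein of the Alu domain (−0.81, SE 0.11, FDR = 2.25e-12, with 390 ± 127 counts on B6 and 220 ± 75.9 on CAST), and Srp54c, of a family that binds signal peptides (−0.67, SE 0.13, FDR = 1.87e-06). On CAST they were the receptor subunits Srpr (0.26, SE 0.08, FDR = 0.00817) and Srprb (0.44, SE 0.08, FDR = 9.72e-07). The median absolute log2 fold change was 0.26. Srp54c has a close relative, Srp54a, whose reads it may share.

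Among 11 paraspeckle proteins, only Nono was called, at −7.96, with 2404 counts on B6 and 9.32 on CAST. Nono is on the X chromosome, of which these males had 1, so its B6 excess cannot be read as a difference between the alleles of 1 animal. The other paraspeckle proteins lay close to balance, with a list median of 0.07 in absolute log2 fold change. Under the replicate block 3 were called, Cpsf6 (0.06, FDR = 0.127) among them. Of 8 nuclear speckle proteins, 1 was called, the splicing factor Srsf5 (−0.22, SE 0.09, FDR = 0.0759, B6 higher in 6 of 7 mice), and the block added Srsf3 (0.12, FDR = 0.0555) and Son (−0.05, FDR = 0.0943).

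RNA polymerase III and its initiation factors, which transcribe the short RNAs, had 11 of 22 genes called, beside 35.9% of all genes. Of these 6 were higher on CAST and 5 on B6, beside 16.8% and 19.2% of all genes. Under the replicate block 9 were called (4 on CAST and 5 on B6, quasi-likelihood test), and with 1 library size per mouse 8 (3 and 5). Polr3f (0.39, SE 0.12, FDR = 0.00678, CAST higher in 7 of 7) and Brf2, the initiation factor of 7SK-type promoters (−0.50, SE 0.17, FDR = 0.0152, B6 higher in 7 of 7), kept their direction in every mouse. The other 9 called genes each had at least 1 mouse that did not. Without mouse 2 the number called was 6. The share of all genes called is not given for that setting, nor for 1 library size per mouse without the block.

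Of 25 other small structural RNAs, 22 were tested and 7 called (31.8%, beside 35.9% of all genes). Of these 6 were higher on CAST and 1 on B6, beside 16.8% and 19.2% of all genes. Rnu3a, a U3 RNA of ribosomal RNA processing, had 4083 ± 1453 counts on B6 and 23238 ± 9416 on CAST (2.53, SE 0.17, FDR = 2.98e-45). Rnu3b1 and Rnu3b3 lay at 0.72 (SE 0.21, FDR = 0.00475). Their counts were identical, and both are among the 6. Snora73b was also higher on CAST (0.52, SE 0.15, FDR = 0.00481), in 7 of 7 mice as for the 3 U3 genes. As for 7SK and 7SL, alleles were equal in all 7 mice for 10 of the 22, the telomerase RNA Terc and the Y RNAs Rny1 and Rny3 among them. Equal alleles were found for 4.36% of all tested genes. The 31.8% called here and the 35.9% of all genes are therefore not like for like. Multicopy families such as U3 are uncertain here, since reads may be divided among copies. Under the replicate block 11 of the 22 were called, and these include Rnu1a1 and Rnu2-10, whose alleles were equal.

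**Figure D4:**
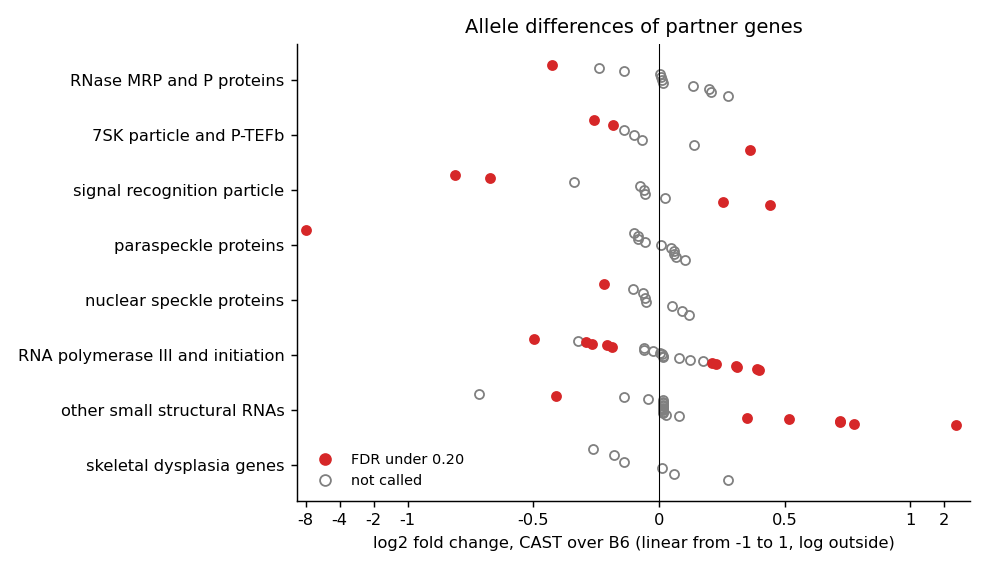
Log2 fold change of CAST over B6 for each tested gene of 8 lists, with 1 point per gene, red where the FDR was under 0.20 and open where it was not. The axis is linear from −1 to 1 and logarithmic outside. Nono, at −7.96, is X-linked, and Rnu3a reaches 2.53.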

How the data were processed

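RNA sequencing of growth plates from 7 male F1 mice gave 1 file per mouse. As the authors describe, paired 75-base reads were aligned with Bowtie to a joint transcriptome of B6 (mm10) and CAST, allowing at most 3 mismatches, and EMASE divided reads that fit several genes or both alleles. The deposited values are estimated counts per gene and allele, not normalized. The totals exceed the average read number in the labels, and what 1 count stands for was not established, so intervals cover counting error only. The widest 95% Wilson half-width of a member's B6 share was 0.939 percentage points.

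Gene names and coordinates came from GENCODE M21, which held 42462 of 43346 identifiers. Replicates carry the mouse numbers of the labels. Following the study's methods, the CAST and B6 columns, rounded to whole numbers, were fitted in R 4.3.3 by glmFit and glmLRT of edgeR 4.0.16 (with limma 3.58.1) and TMM factors, without the mouse. Genes entered the fit if in each mouse either allele had a rounded count above 0. The filter was applied after rounding because many unrounded estimates are vanishingly small. FDR values were Benjamini-Hochberg adjusted over all 19204 tested genes and called under 0.20. Alternatives were the edgeR quasi-likelihood test, DESeq2 1.42.0, the mouse as a replicate block, unrounded counts, other scalings and filters, and leaving out single mice. Single ratios were tested over mice by exact sign-flip permutation with a pseudocount of 0.5.

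The 2 allele columns of a mouse are paired, since they stem from the same library. The deviations of the alleles from their group means correlated at 0.065 on average within a mouse, with a lowest value of −0.060. Between mice the average was −0.011 and the highest value 0.186, so the ranges overlapped and this measure does not identify the pairs.

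Levels were computed as CPM of the mouse's total and per kilobase of the union of annotated exons. Read sharing was counted over exact 75-base stretches of annotated B6 transcripts. Alleles were called equal when they differed by less than 1e-06. Python 3.11.15 was used with numpy 2.4.6, pandas 2.3.3, scipy 1.17.1, matplotlib 3.10.9 and Biopython 1.88.

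The members and the lists were chosen with earlier results of these data known. Named genes are the 7 members, the nearest and overlapping genes, the 3 genes most like each member (not printed for Neat1), and in each list up to 4 called genes with 1 direction in all 7 mice. Genes sharing sequence with a member and other called list genes were named after their values were seen. Some neighbouring and listed genes and 1 sequence are not reported here.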

Additional observations from a re-analysis of the deposited data

How the results depend on the processing

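Rpph1 and Neat1 were called in the same direction under every alternative tried. With a mouse left out, log2 fold changes were 0.51 to 0.55 for Rpph1 and −1.03 to −0.998 for Neat1, and with 1 library size per mouse 0.50 and −1.04. The number of members called was 6 with the mouse as a replicate block (likelihood-ratio, quasi-likelihood and, added after the data were seen, autosomal genes only), 3 of them having equal alleles. In the blocked quasi-likelihood fit this stands beside 42.7% of all genes. The share is not given for the blocked likelihood-ratio and autosomal fits. In the fits across all genes, Malat1 passed the threshold only with the block, at −0.0759 (likelihood-ratio), −0.0762 (quasi-likelihood), −0.0928 (1 library size per mouse) and −0.0849 (autosomal genes only). Rmrp, at 0.01, turned to −0.00496 with 1 library size per mouse (FDR = 1), to −0.00873 with that and the block, and to −0.000836 with the block and autosomal genes only. Divided by the autosomal totals, its mean log2 ratio was −0.0385 (exact sign-flip p = 0.0156) and that of the genes with equal alleles −0.03, where the autosomal totals differ by 0.03.

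RNase MRP and P proteins had 0 calls in the quasi-likelihood test, with 1 library size per mouse or at an FDR of 0.05, 3 with the block (likelihood-ratio), and 0 to 2 with a mouse left out, 0 without mouse 2, 5 or 8. The 7SK list had 5 with the block, 0 at an FDR of 0.05, and 1 to 2 with a mouse left out, 1 without mouse 4 or 5. Paraspeckle and nuclear speckle proteins each had 3 with the block, and the latter 0 at an FDR of 0.05 or without mouse 7 (0 to 1 over mice left out). RNA polymerase III genes had 6 at an FDR of 0.05 and 6 to 10 with a mouse left out. Skeletal dysplasia genes had 0 to 1, with 1 call without mouse 3 or 7. The share of all tested genes called in each of these settings is not given here. A change in these counts is therefore not to be read as a property of a list.

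With totals leaving out the 7SL genes and Rn7sk, mean CPM were 4384 for Rmrp, 5204 for Rpph1, 43429 for Rn7sk, 104211 for Rn7s1 and Rn7s2 and 4708 for Malat1, and the share of genes with a smaller spread was 82.9% for Rn7sk, 66.2% for Rn7s1 and Rn7s2 and 33.3% for Malat1. Of the 21 closest genes 10 were kept. Per kilobase, the log2 ratio of Rpph1 to Rmrp was −0.0724 with lengths less 74 bases, and −0.0135 to 0.0300 with a mouse left out, −0.000802 without mouse 5 and −0.0135 without mouse 7.

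The number of strain differences in each short RNA was not examined, so the precision of their allele shares is below that of the count alone by an unknown amount.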
